A study of Mus musculus with 12 samples.

Results

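The insulin-like growth factor (IGF) family was followed in primary mouse adult fibroblasts (MAFs) treated with thymol, a phenolic monoterpene of thyme and oregano. The family was taken by gene symbol: 9 genes were listed, 8 of them were among the 10697 genes of the expression table, and *Igfbp3* was not analysed here. The 8 genes are the ligand *Igf1*, the receptors *Igf1r* and *Igf2r*, and the binding proteins *Igfbp2*, *Igfbp4*, *Igfbp5*, *Igfbp6* and *Igfbp7*. In total there were 12 libraries of wild-type MAFs from C57BL6/j mice, 6 from cells given 100 µM thymol in DMSO for 24 h and 6 from cells given the same volume of DMSO alone. Both groups grew out of minced biopsies in high-glucose medium with fetal bovine serum. The biopsied tissue and the number of mice behind the libraries are not stated in the sources used here, so the p-values measure the spread between libraries, which may be technical.

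IGF1 is a secreted hormone-like peptide that promotes growth and survival of mesenchymal cells. It acts through IGF1R, a receptor tyrosine kinase that signals through insulin receptor substrates, PI3K, AKT and the RAS and ERK cascade. IGF2R has no kinase activity: it takes up IGF2 for degradation and carries newly made lysosomal enzymes, which it binds through mannose 6-phosphate. The binding proteins (IGFBPs) hold IGFs outside the cell, and proteases release the ligand by cleaving them. Serum in the medium also supplies IGFs and IGFBPs, which RNA sequencing does not see.

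Among the 8 genes, *Igfbp5* and *Igfbp2* fell with thymol and none rose. They are neighbors on chromosome 1 of the GRCm38 build. *Igfbp2* (chr1:72824503-72852474, plus strand) and *Igfbp5* (chr1:72857932-72874884, minus strand) point toward each other. Their 3′ end positions differ by 5458, with 0 annotated genes in that gap (GENCODE vM21). The bases before the start sites of these 2 genes are shown because they are the family members that changed. Each stretch holds the 250 bases upstream of a RefSeq transcription start (GRCm38.p6), written 5′ to 3′ along the gene. RefSeq and GENCODE starts differ here, and the *Igfbp5* stretch runs to 72874866, into the GENCODE gene, which ends at 72874884. Capitals mark a GC box (GGGCGG) or an E-box (CACGTG) on either strand, and no other motif that was searched occurred in them.
Igfbp2, chr1:72824230-72824479, plus strand: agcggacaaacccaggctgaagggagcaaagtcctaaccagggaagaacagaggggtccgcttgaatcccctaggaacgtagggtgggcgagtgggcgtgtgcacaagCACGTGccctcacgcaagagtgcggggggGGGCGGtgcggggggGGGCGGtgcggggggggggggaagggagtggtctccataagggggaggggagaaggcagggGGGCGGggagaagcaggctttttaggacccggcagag
Igfbp5, chr1:72874866-72875115, minus strand: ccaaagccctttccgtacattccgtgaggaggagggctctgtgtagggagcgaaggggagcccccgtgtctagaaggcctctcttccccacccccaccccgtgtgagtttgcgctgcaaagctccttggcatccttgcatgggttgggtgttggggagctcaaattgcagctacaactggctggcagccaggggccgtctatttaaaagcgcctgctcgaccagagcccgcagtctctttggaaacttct

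The *Igfbp2* stretch held 3 GC boxes and 1 E-box, which did not overlap, and was 67.2% G and C. The *Igfbp5* stretch held neither and was 58.8% G and C, beside a median of 60.4% over 10983 upstream stretches of the measured genes. A GC box was present in 59.3% of those stretches and an E-box in 8.48%. Of the other letters searched on both strands, TATAAA, a core promoter element, was in 6.26% of the stretches. The letters CCAAT, which the factor NF-Y binds, were in 34.9%. An AP-1 site, spelled TGACTCA, was in 3.20% and a FOXO site, spelled GTAAACA, in 2.13%. *Igfbp2* has a second RefSeq start downstream, whose stretch held 1 AP-1 match in place of the GC boxes and the E-box. These matches describe letters only, and near matches to a motif were not searched.

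QuantSeq reads the 3′ end of each transcript, giving about 1 read per transcript whatever its length, so levels are set side by side between genes below. Levels are given in log2 CPM (the logarithm of the read count scaled to the size of its library) or, after undoing the logarithm, in CPM. The whole reads recovered from the table numbered between 5435985 and 9049796 per library. Against their label as fibroblasts, the cultures carried markers of macrophages as well: 22 of 25 fibroblast markers were measured, led by *Sparc* at a mean of 12.3 log2 CPM, and 26 of 28 macrophage markers, led by *Lyz2* at 13.6. Of the markers of other cells, 2 of 10 endothelial, 2 of 10 keratinocyte, 2 of 10 skeletal muscle, 3 of 10 adipocyte, 6 of 10 smooth muscle and pericyte, 1 of 8 Schwann cell and 0 of 10 lymphocyte genes were measured. Thymol replicates 4 and 5 stood nearer to the DMSO libraries than the other thymol libraries on the first principal component, at 0.69 and -0.34 against 5.01 to 7.79, with DMSO at -9.88 to 0.59. In these bulk samples fewer cells of a type and less RNA per cell cannot be told apart.

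In DMSO the family spanned a wide range of levels. *Igfbp7*, whose protein binds IGFs only weakly, was the most abundant at 853 ± 21.1 CPM (SD, n = 6), above 98.9% of all genes. *Igf1* followed at 627 ± 26.4 CPM, *Igf1r* at 410 ± 33.5 CPM and *Igfbp4* at 320 ± 17.5 CPM. *Igfbp2* reached 155 ± 9.48 CPM and *Igf2r* 142 ± 13.5 CPM. *Igfbp5* at 28.9 ± 3.80 CPM and *Igfbp6* at 16.7 ± 2.34 CPM were the least abundant. The ranges of neighbors in this order overlapped only for *Igfbp2* and *Igf2r*, where *Igfbp2* was the higher in 5 of 6 libraries. With thymol the order changed at 2 places: *Igf2r* lay above *Igfbp2* in 5 of 6 libraries, and *Igfbp5*, which was above *Igfbp6* in 6 of 6 DMSO libraries, was above it in 3 of 6 thymol libraries.

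**Figure D1:**
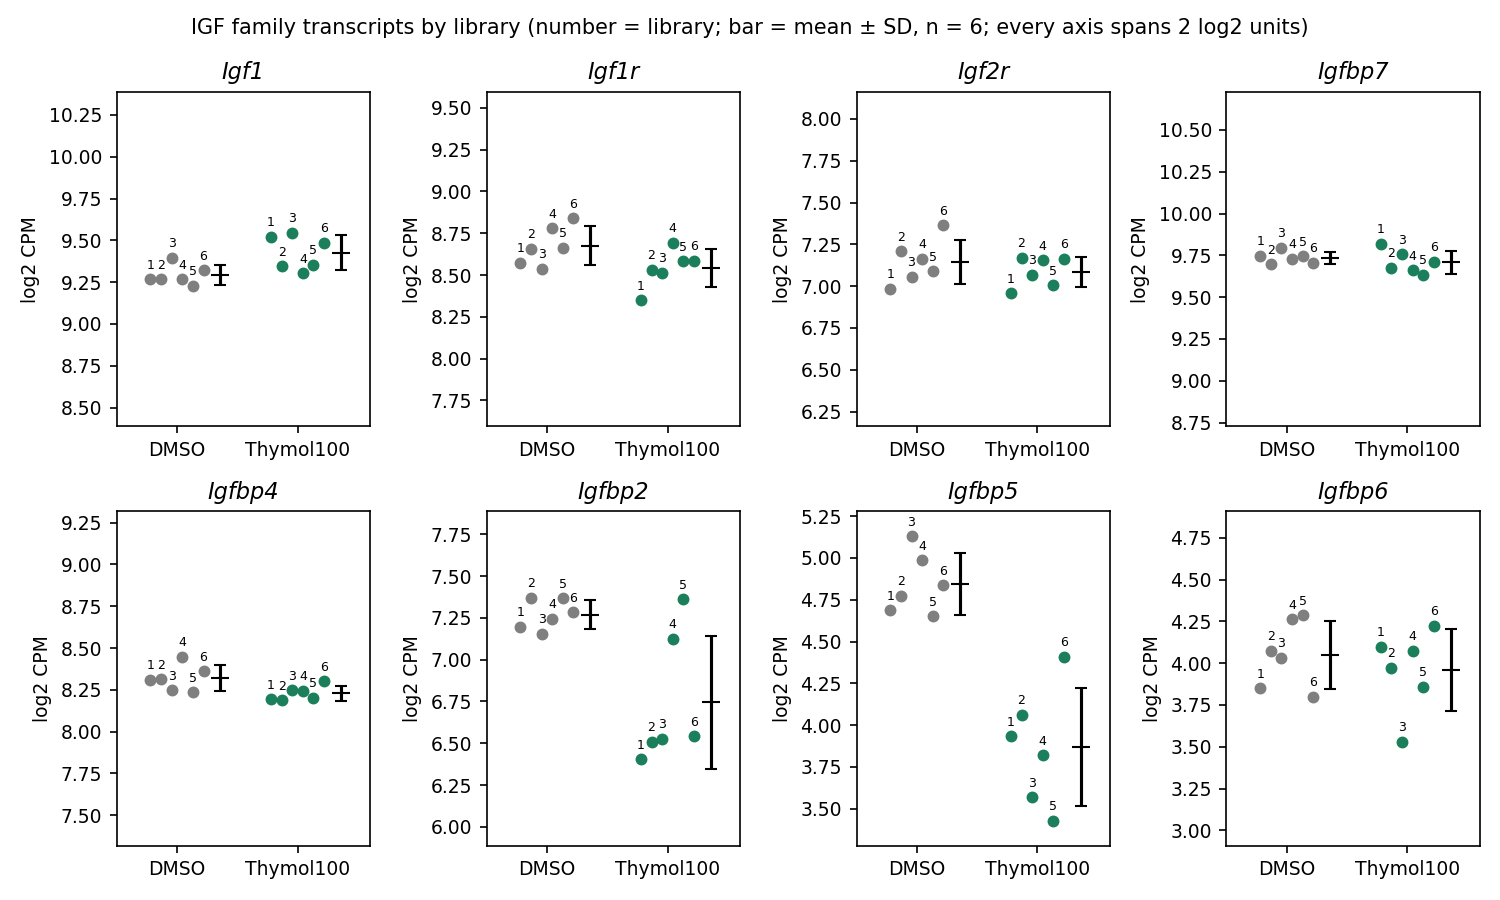
Level of each family gene in log2 CPM (vertical axis, spanning 2 log2 units in every panel) in the 6 DMSO (grey) and 6 thymol (green) libraries, with the library number beside each point and the mean ± SD at the right of each group. The *Igfbp5* groups do not overlap, and for *Igfbp2* thymol replicates 4 and 5 sit at or near the DMSO level while the other 4 lie between 6.40 and 6.54.

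Over all genes 238 of 10697 (2.22%) passed an adjusted p-value of 0.05, 0.654% higher and 1.57% lower with thymol. Of the 8 family genes 2 passed, both lower. All 8 were in the table after the authors' filter on low counts, and the lowest count of any of them in any library was 72 reads. The log2 fold change was negative for 7 of the 8 genes, with a median of -0.090 beside 0.0026 over all genes. The groups did not overlap for 1 family gene, *Igfbp5*, which lay below. This occurred for 1.68% of all genes, 0.524% with thymol above and 1.16% with thymol below. With so few members, these shares describe the family and say nothing particular about it.

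The ligand did not pass the test. IGF1 is made by both fibroblasts and macrophages. *Igf1* (chr10:87858265-87937042) had a lowest, median and highest level of 9.23, 9.27 and 9.40 log2 CPM with DMSO and of 9.30, 9.42 and 9.55 with thymol. Of the thymol libraries 3 of 6 lay above every DMSO library, and the groups overlapped. The log2 fold change was 0.13 ± 0.051 (SE, 95% interval 0.033 to 0.24), and it did not pass the adjustment over all genes (limma, unadjusted p = 0.011, adjusted p = 0.20). Between 3700 and 5936 reads per library stood behind these values, so the counting error on the log2 scale (0.022 in either group) was smaller than the spread between libraries (SD 0.10 with thymol and 0.060 with DMSO). Of the 26 macrophage markers 5 rose and 2 fell in limma, where 0.654% of all genes rose and 1.57% fell. Their summed level, set mostly by abundant ones such as *Lyz2*, ranged from 22133 to 26130 CPM with thymol and from 21898 to 23859 CPM with DMSO. The highest thymol sum was that of replicate 1, and the other thymol libraries reached at most 23496 CPM. The part of these markers in the *Igf1* value was not tested.

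The receptors did not pass the test either. *Igf1r* (chr7:67952827-68233668), the signaling receptor, ranged from 8.54 to 8.84 log2 CPM with DMSO (median 8.66) and from 8.35 to 8.69 with thymol (median 8.56). Its log2 fold change was -0.13 ± 0.058 (SE, 95% interval -0.25 to -0.018, limma adjusted p = 0.30), and thymol lay under the whole DMSO range in 3 of 6 libraries. *Igf2r* (chr17:12682406-12769664), the mannose 6-phosphate receptor, ranged from 6.98 to 7.37 with DMSO (median 7.13) and from 6.96 to 7.17 with thymol (median 7.11). Its log2 fold change was -0.058 ± 0.069 (SE, 95% interval -0.20 to 0.081, limma adjusted p = 0.84). There were 2.75 ± 0.16 *Igf1r* transcripts per *Igf2r* transcript after thymol against 2.89 ± 0.14 after DMSO (SD, 6 libraries each), and the ranges overlapped.

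*Igfbp5* showed the largest fold change of the family. Its protein binds both IGFs and the extracellular matrix and is a product of mesenchymal cells. The DMSO libraries held 4.65, 4.80 and 5.13 log2 CPM (lowest, median and highest) and the thymol libraries 3.43, 3.88 and 4.41, so that the groups were fully apart, with 6 of 6 below. In CPM the mean went from 28.9 ± 3.80 to 15.0 ± 3.76 (SD, n = 6 per group). The log2 fold change was -0.97 ± 0.16 (SE, limma adjusted p = 2.7e-05), which is 0.51-fold with a 95% interval of 0.41 to 0.63. The thymol value rested on 93.0 reads per library on average and the DMSO value on 203.5, with counting errors of 0.15 and 0.10 on the log2 scale beside spreads of 0.35 and 0.18. The size depended on the pseudocount, since with 10 CPM added before the logarithm the change was -0.65. The odd-numbered libraries alone gave -1.18 and the even-numbered ones -0.77, and *Igfbp5* passed in both.

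*Igfbp2* fell less and unevenly. Its protein binds IGF2 and IGF1 and has been studied in fat, muscle and bone. The DMSO libraries were tight, with 7.15, 7.26 and 7.37 log2 CPM as lowest, median and highest. Of the thymol libraries, replicates 1, 2, 3 and 6 held 6.40, 6.51, 6.53 and 6.54 log2 CPM, while replicate 4 held 7.12 and replicate 5 held 7.36. Hence 5 of 6 were under the DMSO range, replicate 4 by a small margin, and replicate 5 lay inside the DMSO range. In CPM the first 4 lay between 84.7 and 93.1, the other 2 at 140 and 164, and the DMSO libraries between 142 and 165. The mean log2 fold change was -0.53 ± 0.098 (SE, limma adjusted p = 0.00039), or 0.69-fold with a 95% interval of 0.61 to 0.80.

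The *Igfbp2* spread within the thymol group, an SD of 0.40, was 4.47 times that of the DMSO group. It was larger than the thymol SD of 99.8% of the 1281 genes within 0.5 log2 units of the *Igfbp2* level, and the counting error was 0.053. The limma fit draws each gene's variance toward that of genes of like level, so its SE of 0.098 was below the 0.17 that the SDs of the 2 groups alone give, and in the fit without a mean-variance trend *Igfbp2* did not pass (adjusted p = 0.19). It also did not pass in the odd-numbered libraries alone (-0.48, adjusted p = 0.099). The summed level of the 22 fibroblast markers, set mostly by abundant ones such as *Sparc*, was 18071 and 19003 CPM in thymol replicates 4 and 5. It was 16995 to 17357 CPM in the other thymol libraries and 18768 to 20129 CPM with DMSO. For *Igfbp5*, replicates 4 and 5 held 3.82 and 3.43 log2 CPM, both below the thymol median of 3.88, whereas for *Igfbp2* they were the highest of the thymol libraries. Of the 22 fibroblast markers 0 rose and 3 fell in limma, where 0.654% of all genes rose and 1.57% fell. The 6 smooth muscle and pericyte markers, of which 0 rose and 2 fell, summed to 795 to 1077 CPM with thymol and 1020 to 1173 CPM with DMSO. The part of these markers in the *Igfbp2* and *Igfbp5* values was not tested.

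**Figure D2:**
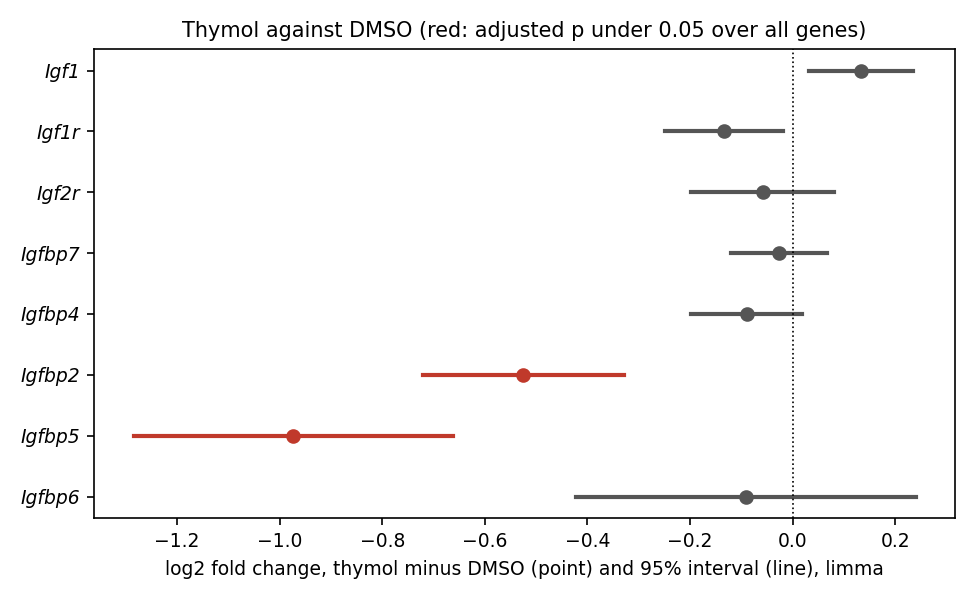
Log2 fold change of each family gene, thymol minus DMSO (point), with its 95% interval from limma (line), over 6 libraries per group. *Igfbp2* (-0.53) and *Igfbp5* (-0.97), in red, passed an adjusted p-value of 0.05 over all genes; the 6 genes in grey did not.

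Within 1000000 bases of *Igfbp2* and *Igfbp5* 4 other genes were measured, *Pecr*, *Xrcc5*, *Smarcal1* and *Rpl37a*, named by their position. Their log2 fold changes ranged from -0.17 to 0.53 and 0 of 4 passed in limma, where 2.22% of all genes did. *Pecr*, at 0.53 ± 0.19 (SE), differed by as much as *Igfbp2* in the other direction without passing (limma adjusted p = 0.19). With *Xrcc5* and *Smarcal1* it is a gene of low level, and the SEs of these genes were 0.19 to 0.20.

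The remaining 3 binding proteins did not pass. *Igfbp7* (chr5:77349240-77408041) ranged from 9.70 to 9.80 log2 CPM with DMSO (median 9.74) and from 9.63 to 9.82 with thymol (median 9.69). Its log2 fold change was -0.027 ± 0.046 (SE, 95% interval -0.12 to 0.067, limma adjusted p = 0.91). *Igfbp4* (chr11:99041244-99054392), an inhibitor of IGF action that the protease PAPP-A cleaves, ranged from 8.24 to 8.45 with DMSO (median 8.31) and from 8.19 to 8.30 with thymol (median 8.22). Its log2 fold change was -0.090 ± 0.054 (SE, 95% interval -0.20 to 0.019, limma adjusted p = 0.56). *Igfbp6* (chr15:102144362-102149511), which prefers IGF2, ranged from 3.80 to 4.29 with DMSO (median 4.05) and from 3.53 to 4.22 with thymol (median 4.02). With 72 to 129 reads per library its log2 fold change was -0.091 ± 0.16 (SE, limma adjusted p = 0.91), with a 95% interval of -0.42 to 0.24.

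Seen as a pool, IGFBP transcripts were fewer per *Igf1* transcript with thymol. The 5 binding proteins summed to 1280 ± 25.9 CPM in the thymol libraries against 1373 ± 16.9 CPM in the DMSO libraries (SD, n = 6 per group), and the highest thymol library (1314 CPM) lay below the lowest DMSO library (1357 CPM). Divided by *Igf1*, the sum was 1.86 ± 0.12 with thymol and 2.19 ± 0.087 with DMSO, with ranges of 1.72 to 2.03 and 2.06 to 2.28. The divisor moved as well: *Igf1*, which did not pass the test, was 689 ± 49.8 CPM with thymol and 627 ± 26.4 CPM with DMSO. Most of the sum was *Igfbp7*, at 65.5% ± 2.55 with thymol and 62.1% ± 1.33 with DMSO. Without *Igfbp7* the sum per *Igf1* was 0.65 ± 0.084 with thymol and 0.83 ± 0.053 with DMSO, with ranges of 0.56 to 0.75 and 0.74 to 0.89 that overlapped. The share of *Igfbp2* in the sum was 8.66% ± 2.58 with thymol and 11.3% ± 0.77 with DMSO, and that of *Igfbp5* 1.17% ± 0.30 and 2.10% ± 0.26. The shares of *Igfbp4* (23.5% and 23.3%) and *Igfbp6* (1.23% and 1.22%) differed by less than the spread between libraries. No test was run on these sums, since the genes in them were chosen with results known, and transcripts are not amounts of secreted protein.

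**Figure D3:**
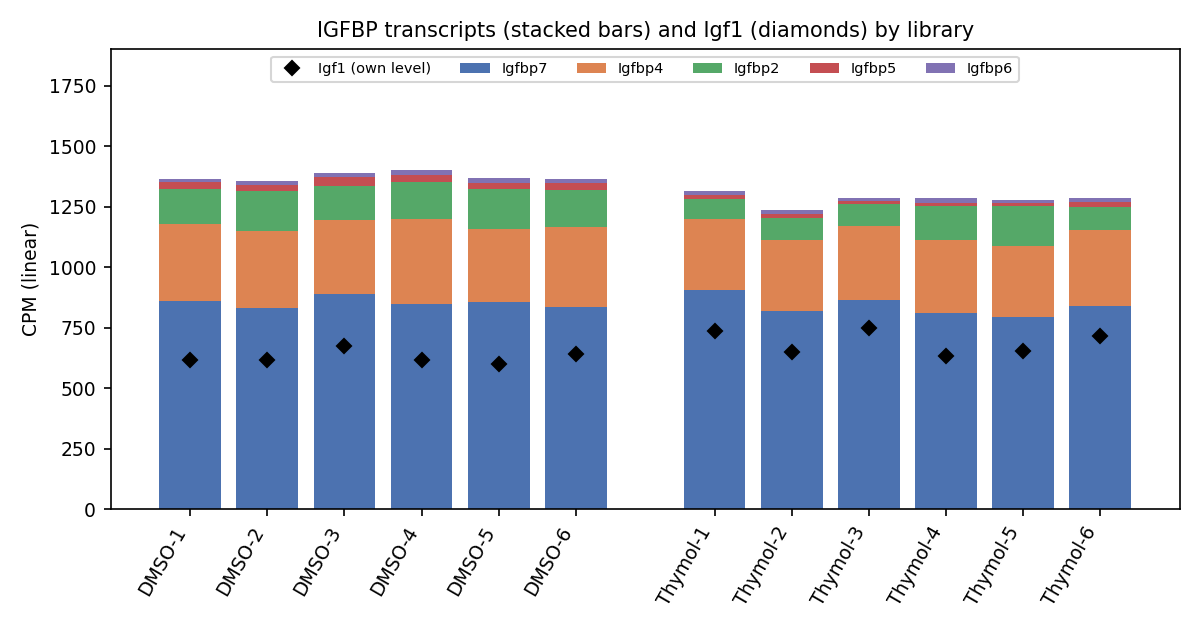
CPM (linear axis from 0) of the 5 IGFBP transcripts, stacked, and of *Igf1* (black diamonds, its own level) in each of the 6 DMSO and 6 thymol libraries. The stacks reach 1357 to 1401 CPM with DMSO and 1234 to 1314 CPM with thymol, while *Igf1* lies between 599 and 674 CPM and between 632 and 748 CPM.

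Genes that act on or after the IGF family were taken from 9 lists, which hold 152 distinct measured genes beside the family. Of these 8 passed over all genes, 3 higher and 5 lower, which is 5.26% beside 2.22% of all genes. Fitted alone, the 5394 genes with a mean of at least 5 log2 CPM held 230 that passed, a higher share than that of all genes. The lists were not matched to other genes by level. Proteases that can cleave IGFBPs and their inhibitors held 6 of the 8. Of 19 measured, 2 were higher and 4 lower, with a median log2 fold change of -0.062. The lysosomal proteases *Ctsd* and *Ctsb* rose by 0.31 ± 0.047 and 0.19 ± 0.043 on the log2 scale (SE, limma adjusted p = 6.9e-06 and 0.0042). The serine protease gene *Prss23* was lower, by -0.28 ± 0.062 on the log2 scale (SE, limma adjusted p = 0.0042). The other 3, named after their values were seen, were the metalloprotease inhibitor *Timp3* (-0.22), the metalloprotease *Adamts1* (-0.34) and *Stc1* (-0.44), a stanniocalcin that inhibits PAPP-A, given as log2 fold changes. *Stc1* went from 5.06 ± 0.22 log2 CPM with DMSO to 4.62 ± 0.13 with thymol (SD, n = 6 per group, limma adjusted p = 0.044). *Pappa* itself, also named after its value was seen, differed by -0.062 ± 0.067 (log2, SE, limma adjusted p = 0.81).

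Signaling genes past the receptor showed few changes. Over all genes 1261 of 10697 had an unadjusted p under 0.05, and 5441 of 10697 had a positive log2 fold change, which the counts in these lists are to be read against. Of 23 measured receptor-proximal adaptors 0 passed in limma, with 5 at an unadjusted p under 0.05 and a median log2 fold change of 0.011. Of 40 genes of PI3K, AKT, FOXO and mTOR signaling 0 passed, with 2 at an unadjusted p under 0.05 and a median of 0.0040. Of 24 genes of RAS and ERK signaling 1 passed: *Rasa1*, a GTPase-activating protein that switches RAS off, which was higher by 0.30 ± 0.067 (log2, SE, limma adjusted p = 0.0043). Of 19 measured FOXO target genes 15 had a positive log2 fold change, with 6 at an unadjusted p under 0.05. Of those 6, named after their values were seen, *Txnip*, *Sod2*, *Rictor* and *Klf2* were lower and *Bcl2l11* and *Cited2* higher. The 1 that passed was lower. This was *Txnip*, which encodes a thioredoxin-binding protein that responds to glucose, at -0.35 ± 0.068 (SE, limma adjusted p = 0.00071). The median of that list was 0.061.

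Genes above the ligand and beside the receptors did not pass. Of 10 genes of the growth hormone receptor and STAT5 axis, which drives *Igf1* transcription in liver, 0 passed, with 2 at an unadjusted p under 0.05 and a median log2 fold change of 0.077. Its receptor *Ghr*, named for its role, differed by 0.15 ± 0.074 (log2, SE, limma adjusted p = 0.41). Of 18 genes of mannose 6-phosphate targeting, the pathway in which IGF2R sorts enzymes to lysosomes, 0 passed, with 2 at an unadjusted p under 0.05 and a median of 0.025. The 3 IGF2 mRNA-binding proteins differed by -0.065 to 0.086 on the log2 scale and 0 passed in limma, with 0 at an unadjusted p under 0.05. Of 12 other IGF and insulin family genes 2 were measured and 0 passed in limma, with 0 at an unadjusted p under 0.05. Of these, the insulin receptor gene *Insr*, named for its kinship to *Igf1r*, lay at 4.35 ± 0.32 log2 CPM after thymol against 4.32 ± 0.30 after DMSO (SD, 6 libraries each).

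**Figure D4:**
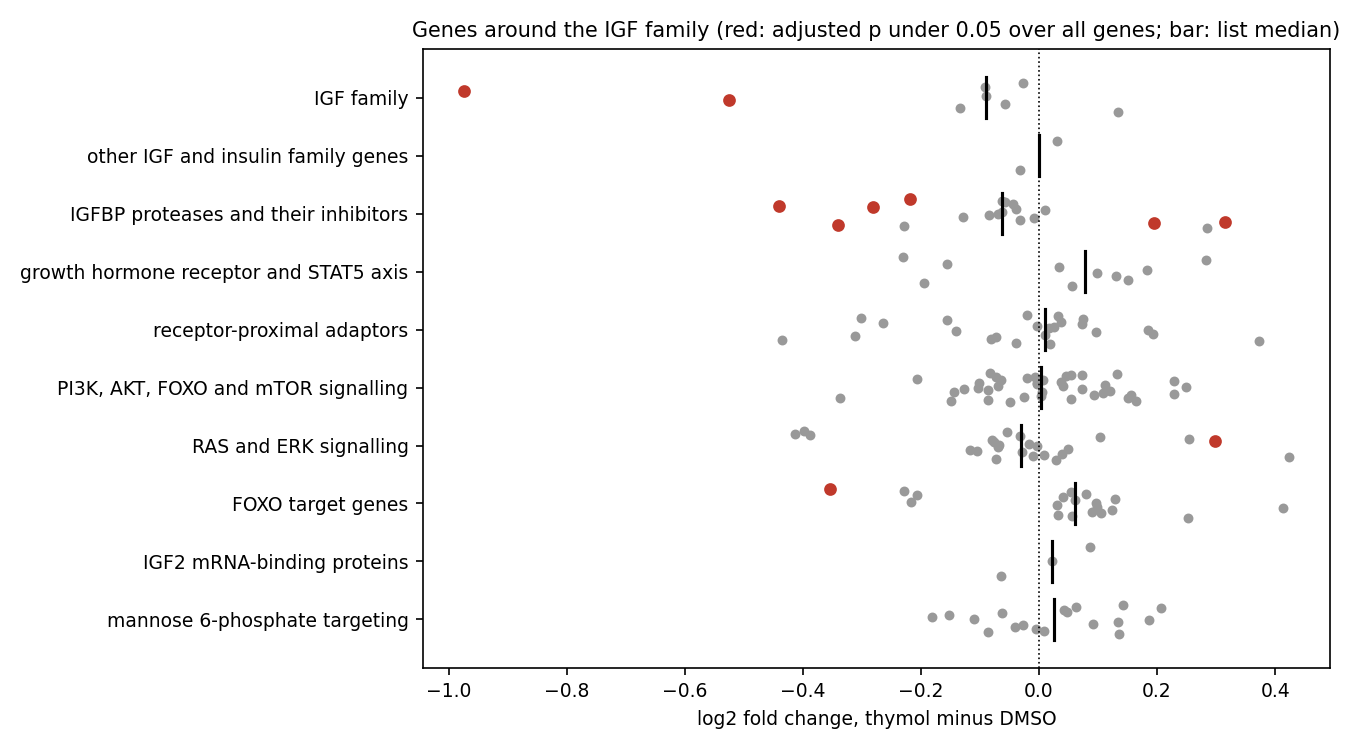
Log2 fold changes, thymol minus DMSO (horizontal axis), of the measured genes of the IGF family and of the 9 lists around it (points, 1 per gene), with the list medians as black bars. Red points passed an adjusted p-value of 0.05 over all genes: 2 in the IGF family, 6 among IGFBP proteases and inhibitors, and 1 each among RAS and ERK genes and FOXO targets.

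The genes most like a family member in their variation were sought after removing the group means, over 12 libraries and 5393 other genes with a mean of at least 5 log2 CPM. The measure was Pearson's r of the deviations, given as a description, since all genes of a library share its depth and composition. Among the genes most like *Igf1* were *Grem1* (0.88), *Gnaq* (0.84), *Rad50* (0.84) and *Tcof1* (0.83). *Igf1r* varied most like *Prrc2a* (0.92), *Zc3hc1* (0.92), *Myl12a* (0.92), *Timp2* (0.91) and *Kctd20* (0.91). Among those most like *Igfbp7* were *Fam162a* (0.95), *Crebbp* (0.93), *Pou2f2* (0.91) and *Pgd* (0.90). None of the genes named here passed the test between thymol and DMSO in limma.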

How the data were processed

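The authors mapped the QuantSeq reads with STAR 2.5.3 to GRCm38, counted them per gene with HTSeq 0.6.1 (versions from the submitters' processing notes), removed genes with few reads or no annotation, and applied TMM scaling to the libraries. The values the authors deposited are log2 CPM (counts scaled to library size) with a prior count, 1 column per library, which pulls fold changes of genes with few reads toward 0. Reads were recovered from the spacing of the low values, where 100% of those below 200 reads came within 0.02 of an integer. A prior of 1.96 reads fitted the mean library.

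The log2 values were tested with limma 3.58.1 in R 4.3.3 (lmFit, eBayes with a trend, 2 groups, no covariate, two-sided), with Benjamini-Hochberg adjustment across the 10697 genes. The deposited values are not counts, and limma was run on them as they are. The recovered reads entered limma's voom as an alternative (238 genes passed). The count model named in the study's methods was not run on them. CPM is 2 to the power of a value. Intervals are 95%, and counting errors are 1 SD and cover counting only.

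All family genes were named, and from each list up to 3 of the genes that passed with the smallest p-values. For *Igf1*, *Igf1r* and the most abundant binding protein the 5 genes most alike were named, except for some that are not reported here. Other names are said to be chosen by role or after values were seen. The members and lists were chosen with earlier results of these data known. The ratio of the receptors and the pool without *Igfbp7* were added after the values were seen. Alternatives were other normalizations, variance models, pseudocounts, a level filter, library number as a term, odd or even numbers, and leaving out each library. Upstream sequences are from RefSeq, which covered 8 of 8 family genes.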

Additional observations from a re-analysis of the deposited data

How the results depend on the processing

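With a library left out, all genes past the threshold numbered 172 to 270 and family genes 2 to 2. Without a mean-variance trend 57 genes passed over all genes, and in the odd-numbered libraries alone 70. Of the family 1 gene, *Igfbp5*, passed in those 2 fits. Among genes with a mean of at least 5 log2 CPM 1 passed, since *Igfbp5* is below that level. *Igfbp2* ranged from -0.65 without thymol replicate 5 to -0.46 with a library left out and *Igfbp5* from -1.08 to -0.88, and both passed in 12 of those 12 fits. *Igf1* ranged from 0.091 to 0.18 over all 23 alternatives (adjusted p 0.097 to 0.68). *Igfbp6* turned to 0.044 in the even-numbered libraries alone, on 72 to 129 reads per library over all libraries. The recovered reads gave the same difference in IGFBP transcripts per *Igf1* transcript, -0.33. They come from the same deposited values, so this is no separate check. The cause of these shifts was not tested.

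Thymol and DMSO libraries share numbers. The correlation of the deviations of same-numbered libraries ranged from -0.051 to 0.27 and was over 0.1 for 2 of 6 pairs. Of the thymol libraries 2 of 6 were most like their own number. With 6 pairs, these values cannot decide whether the numbers pair the libraries. On the second principal component odd-numbered DMSO libraries lay at 4.75 to 6.64 and even-numbered ones at -1.79 to 1.02. Thymol libraries were not split in this way. In both groups *Igf1r*, *Igf2r*, *Igfbp4* and *Igfbp5* averaged higher in even-numbered libraries (*Igf2r* with DMSO 7.25 against 7.04 log2 CPM), and *Igf1* and *Igfbp7* in odd-numbered ones. The cause was not tested. With the replicate block 332 genes passed over all genes in place of 238, 2 of the family and 9 of the listed genes in place of 8. *Igf1* had an adjusted p-value of 0.097 there.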

Other observations

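In a search chosen after its values were seen, the genes whose deviations from the group means were most like those of *Igfbp2* over the 12 libraries were *Kctd5* (Pearson's r = 0.93), *Timp3* (0.92), *Thbs1* (0.91), *Col8a1* (0.90) and *Serpinh1* (0.90). The deviations of *Igfbp2* were largest with thymol (SD 0.40, against 0.089 with DMSO), where replicates 4 and 5 stood above the other libraries. Its r values therefore rest mostly on that split. *Timp3*, *Thbs1*, *Col8a1* and *Serpinh1* encode a matrix-bound protease inhibitor, thrombospondin-1, a collagen chain and a collagen chaperone. Of the 5, only *Timp3* passed between thymol and DMSO in limma (log2 fold change -0.22, adjusted p = 0.0043). For *Igfbp5* the genes most alike were *Sanbr* (0.90), *Dennd1a* (0.84), *Tfdp2* (0.84), *Ankrd28* (0.82) and *Alg1* (0.81), none of which passed in limma and none of which is in the list for *Igfbp2*. These values describe the libraries and carry no test.

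By Dixon's criterion 0 of 36 groups of 6 libraries, over family levels, pool sums, shares and ratios, held a single library past the 95% critical value, where chance gives about 1.8. That criterion looks at 1 library at a time, and *Igfbp2* with thymol has replicates 4 and 5 close together.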
